A study of Mus musculus with 2 samples.

Results

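The neurotrophin ligands Bdnf and Ntf3, the receptors Ngfr, Ntrk2 and Ntrk3, and the sorting receptor Sort1 were read across the cells of denervated mouse hind limb muscle 7 days after sciatic nerve crush (7 dpi). These are 6 of the 32287 features in the count matrix. They were chosen by name for the question of which muscle cells supply and which sense neurotrophins while the axons are away, and the rule used no measured value, although earlier results of these data were known when the question was set. Their levels were read in 7834 of the 36400 barcodes (droplets called as cells) of the library.

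The study followed Schwann cells (SCs) of muscle through the loss and return of innervation in S100GFP-tg mice, a reporter line in which the S100B promoter drives green fluorescent protein (GFP). The mice were wild-type (WT in the labels) S100GFPtg males of 2 months with a crushed sciatic nerve, and all carried the reporter. Tibialis anterior and gastrocnemius were digested, viable cells that excluded propidium iodide were sorted into GFP+ and GFP- fractions, and each fraction became 1 droplet library of 3' tags. The methods speak of pooled males and the series text of 1 crushed mouse, and how many animals the library holds is therefore uncertain. The counts described here come from the GFP+ library. The counts of the GFP- library and of uninjured muscle were not analysed here, so every level belongs to 7 dpi alone. The sort keeps any cell with reporter signal and not SCs alone, and the cell bodies of motor and sensory neurons lie outside the muscle, so the neurons that neurotrophins act on were not sampled.

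Neurotrophins are secreted growth factors that keep neurons alive and guide their axons. Each is made as a longer precursor and cut to its mature form by furin-like enzymes. The mature factors bind the Trk receptor kinases, BDNF preferring TrkB (the product of Ntrk2) and NT-3 preferring TrkC (Ntrk3), while p75NTR (Ngfr) binds every neurotrophin and, together with sortilin (Sort1), the uncut precursors. In nerve, p75NTR is a known mark of immature and repair SCs. Ntrk2 and Ntrk3 also give rise to truncated receptors without a kinase, which 3' counts summed per gene could not tell from the full-length receptors.

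The ligands are shown by the place where their precursors are cut, because the enzymes that cut there are among the genes measured below. The sequences were read from the GRCm39 genome at the coding exons of the GENCODE M39 canonical transcripts, 5′ to 3′ on the coding strand, and capitals mark the 4 codons of the basic cleavage site, after which the mature factor begins. Bdnf lies at chr2:109554102-109554161 on the plus strand and Ntf3 at chr6:126079025-126079084 on the minus strand.
Bdnf: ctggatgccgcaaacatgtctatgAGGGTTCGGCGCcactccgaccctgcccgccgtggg
Ntf3: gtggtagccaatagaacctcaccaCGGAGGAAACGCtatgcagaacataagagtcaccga
In both ligands these 60 bases are exonic and coding, and 119 codons follow the site. On the same build, Bdnf (ENSMUSG00000048482) spans chr2:109505045-109557475, Ntf3 (ENSMUSG00000049107) chr6:126078375-126143873 and Ngfr (ENSMUSG00000000120) chr11:95459638-95478561. Ntrk2 (ENSMUSG00000055254) spans chr13:58954176-59281784, Ntrk3 (ENSMUSG00000059146) chr7:77825707-78387760 and Sort1 (ENSMUSG00000068747) chr3:108191285-108268842.

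Barcodes with under 10% mitochondrial counts, over 200 genes and at least 5000 unique molecular identifiers (UMIs, counted transcript molecules) were assigned to a class when they passed the marker gate of that class and of no other. Of 8701 such barcodes, 459 passed gates of several classes and 379 passed none, and 29 fell in classes of under 20 barcodes. The 9 classes described were 5493 monocytes and macrophages, 1254 fibroblasts, 371 tenocytes, 282 dendritic cells, 248 satellite cells and myoblasts, 76 SCs, 51 mural cells, 39 endothelial cells and 20 muscle fibre barcodes. Their median depths ran from 6765 UMIs in the endothelial class to 16090 UMIs in the dendritic class. Levels are given as CPM, the UMIs of a gene per 1000000 UMIs summed over the class, with exact Poisson 95% intervals, and shares of barcodes carry exact binomial (Clopper-Pearson) 95% intervals. The intervals cover counting error only. With 1 library no test was possible and no p-value is given.

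The classes are described here by markers. Sox10, Pax7, Myog and the smooth muscle and pericyte lists were part of the gates, so their levels follow in part from the assignment. Sox10, the transcription factor that defines the SC lineage, stood at 258 CPM in the SC class and at 0.509 CPM or below in each other class. A list of 8 further SC genes that no gate used, among them Gap43 and Gdnf, summed to 8374 CPM in the SC class and to between 6.56 and 178 CPM in the other classes. Pax7, which marks satellite cells, stood at 252 CPM in the satellite cell and myoblast class, and Myog, which marks differentiating myoblasts, was at 0 UMIs there and at 172 CPM in the muscle fibre class. The mural class carried both smooth muscle and pericyte markers, with the smooth muscle list summing to 16370.0 CPM and the pericyte list to 2659 CPM. The muscle fibre class held few barcodes and few UMIs, and a count of 0 in it still allows 14.0 CPM.

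The members differed in the class where they stood highest. Bdnf stood highest in satellite cells and myoblasts, Ntf3 in mural cells and fibroblasts, Ngfr in SCs, Ntrk2 in fibroblasts and mural cells, and Ntrk3 and Sort1 in mural cells. Monocytes and macrophages, which made up 70.1% of the described barcodes, held the ligands and the Trk receptors at between 0.103 and 1.28 CPM.

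**Figure D1:**
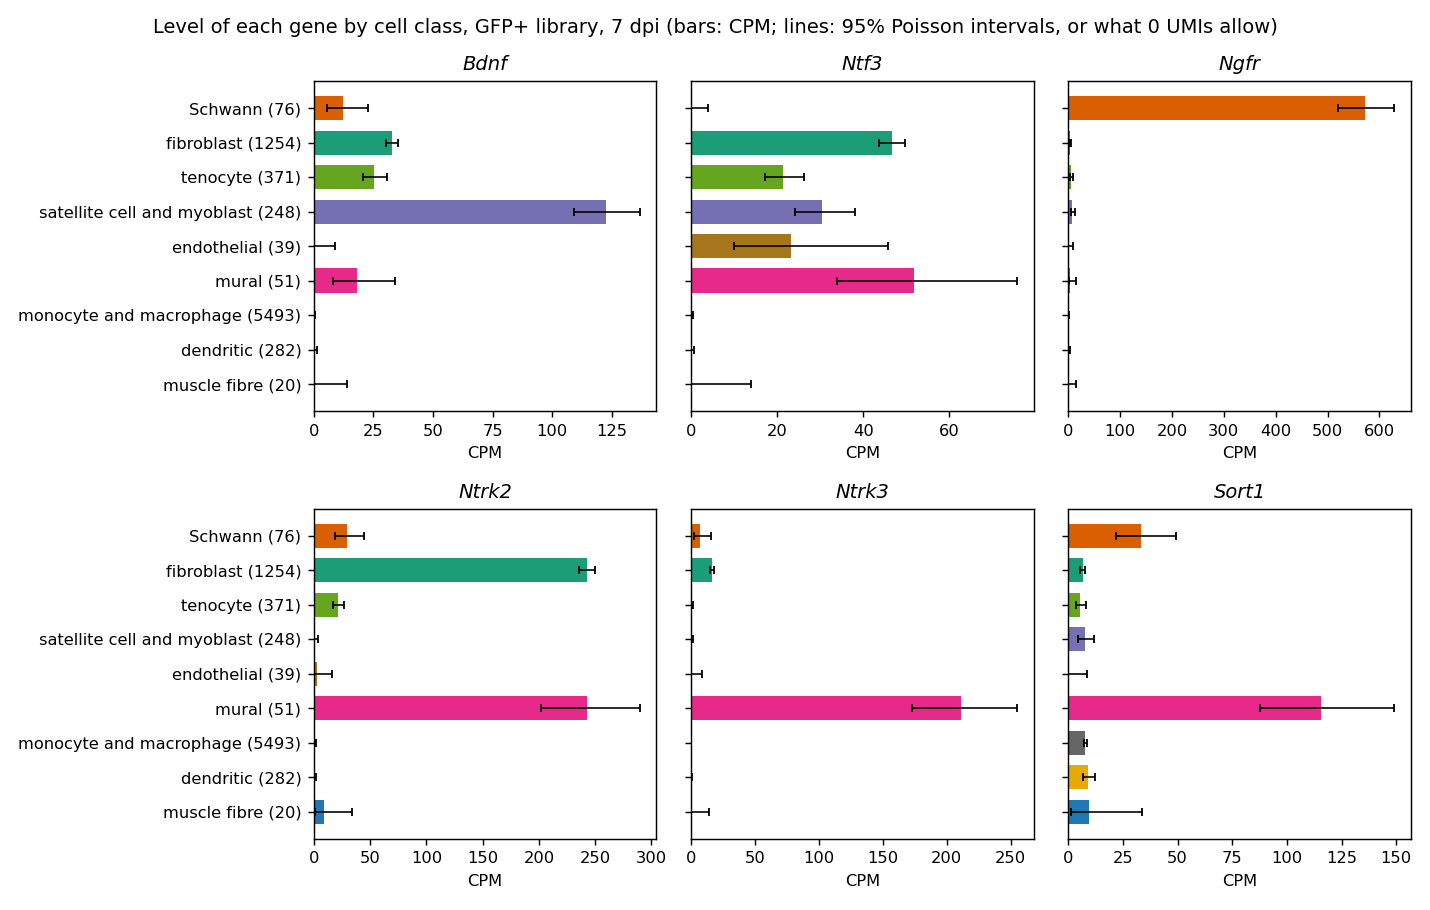
Level of each of the 6 genes (CPM, linear axis) in the 9 classes of the GFP+ library at 7 dpi, with the number of barcodes of each class in brackets. Bars are CPM and lines are exact Poisson 95% intervals, or what 3 counts amount to where a class had 0 UMIs. Ngfr reached 572 CPM in SCs and no more than 7.83 CPM elsewhere, while Ntrk2 stood at 243 CPM in both fibroblasts and mural cells.

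Bdnf, the ligand of TrkB, was counted at 313 UMIs in satellite cells and myoblasts, or 123 CPM (109 to 137). Fibroblasts held 641 UMIs at 32.6 CPM (30.1 to 35.2), tenocytes 108 UMIs at 25.3 CPM (20.7 to 30.5), mural cells 9 UMIs at 17.9 CPM (8.19 to 34.0) and SCs 9 UMIs at 12.0 CPM (5.50 to 22.8). The satellite cell class thus exceeded fibroblasts 3.76-fold, a log2 ratio of 1.91 (1.71 to 2.11). Fibroblasts exceeded tenocytes by 0.37 on the log2 scale (0.07 to 0.68), and from tenocytes to mural cells to SCs neighbours in the order had intervals that included 0. Of the 9 mural UMIs 5 lay in 1 barcode, and none lay in the 29 mural barcodes without a UMI of the fibroblast gate list. Monocytes and macrophages held 19 Bdnf UMIs at 0.279 CPM, dendritic cells 1 UMI, and endothelial and muscle fibre barcodes none.

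Bdnf was not spread evenly over satellite cells. After each barcode was thinned to 5000 UMIs, 17.3% (12.8 to 22.6) of them held a Bdnf UMI, against 0.127% of monocytes and macrophages, and unthinned, at medians of 9120 and 11287 UMIs, 21.8% and 0.273% did. Among the 54 positive barcodes the median was 3.5 UMIs and the highest 30 UMIs, so the Bdnf of the class lay in 54 of its 248 barcodes. The fibroblast gate list summed to 521 CPM in these 54 barcodes and to 527 CPM in the 194 without Bdnf. Only 13 satellite cell barcodes had no UMI of that list, and they held 1 Bdnf UMI, or 5.11 CPM (0.129 to 28.5). The part of fibroblast RNA in the satellite cell level was not tested. In satellite cells that list came mainly from Dpt, at 377 CPM, and Abca8a, at 127 CPM, while Pdgfra and Lum, which define fibroblasts, stood at 3.13 and 1.96 CPM against 485 and 1181 CPM in the fibroblast class.

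In SCs the Bdnf count rested on few barcodes. Of the 9 UMIs, 5 came from 1 barcode, and 5 of 76 SC barcodes held any. The share with a UMI after thinning was 2.63% (0.320 to 9.18). The fibroblast list summed to 675 CPM in these 5 barcodes and to 338 CPM in the other 71, and in the 45 SC barcodes without any UMI of that list Bdnf came to 2 UMIs, or 4.73 CPM (0.573 to 17.1). Whether RNA of fibroblasts contributed to Bdnf in SCs was not tested.

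Ntf3, the ligand of TrkC, was counted at 26 UMIs in mural cells, or 51.7 CPM (33.8 to 75.8), and at 917 UMIs in fibroblasts, or 46.7 CPM (43.7 to 49.8). These classes differed by 0.15 on the log2 scale (-0.47 to 0.71), within counting error. Satellite cells and myoblasts followed with 78 UMIs at 30.5 CPM (24.1 to 38.1), endothelial cells with 8 UMIs at 23.2 CPM (10.0 to 45.7) and tenocytes with 91 UMIs at 21.3 CPM (17.1 to 26.1), and neighbours among these had intervals that included 0. Of the 8 endothelial UMIs 4 lay in 1 barcode. No Ntf3 UMI was found in 76 SC barcodes with 747948 UMIs in all, a depth at which a count of 0 allows up to 4.01 CPM. Against that limit of 3 counts fibroblasts were at least 11.6-fold and mural cells at least 12.9-fold higher than SCs. Monocytes and macrophages held 15 UMIs at 0.220 CPM, and dendritic cells and muscle fibre barcodes none.

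Ntf3 was found in many fibroblasts at low number. After thinning, 18.3% (16.2 to 20.5) of fibroblasts, 17.6% (8.40 to 30.9) of mural cells, 11.7% (7.97 to 16.4) of satellite cells and 8.89% (6.20 to 12.3) of tenocytes held a UMI, against 0.146% of monocytes and macrophages. In the same order, 36.0%, 33.3%, 21.8%, 16.4% and 0.273% held one without thinning, and the median depths were 15378, 10205, 9120, 10669 and 11287 UMIs. The fibroblasts with Ntf3 held a median of 1 UMI and at most 10. Ntf3 was also read in barcodes where the fibroblast list was at 0. In barcodes without a UMI of the fibroblast list Ntf3 stood at 56.5 CPM (32.9 to 90.4) in 29 mural cells, at 32.6 CPM (21.5 to 47.4) in 81 tenocytes and at 23.6 CPM (9.48 to 48.6) in 34 endothelial cells. In the 13 such satellite cells it stood at 2 UMIs or 10.2 CPM (1.24 to 36.9), an interval that includes the class level of 30.5 CPM. As given above, the list came mainly from Dpt and Abca8a in this class. Over all satellite cells that list summed to 580.2 CPM in the 54 barcodes with Ntf3 and to 509 CPM in those without it.

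Ngfr, which encodes p75NTR, was counted at 428 UMIs in the 76 SCs, or 572 CPM (519 to 629). The next class, satellite cells and myoblasts, held 20 UMIs at 7.83 CPM (4.78 to 12.1), 73.1-fold lower by a log2 ratio of 6.19 (5.55 to 6.92). Tenocytes had 26 UMIs at 6.08 CPM, mural cells 2 UMIs at 3.98 CPM, fibroblasts 73 UMIs at 3.71 CPM, dendritic cells 10 UMIs at 2.09 CPM and monocytes and macrophages 20 UMIs at 0.294 CPM. Endothelial and muscle fibre barcodes held none, where SCs were at least 65.7-fold and 41.0-fold higher than a count of 3 would give. Below SCs, neighbours in the order differed beyond counting error only where dendritic cells exceeded monocytes and macrophages.

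Nearly every SC held Ngfr. After thinning, 88.2% (78.7 to 94.4) of SC barcodes had a UMI, against 0.255% of monocytes and macrophages, and unthinned, at medians of 8562 and 11287 UMIs, the shares reached 96.1% and 0.346%. SC barcodes without thinning held from 0 to 19 Ngfr UMIs with a median of 4.5, and 3 of them held none. The low Ngfr counts of most other classes were of the size seen for SC genes in general. Taking the SC class as 100%, Ngfr stood at 1.37% in satellite cells, 1.06% in tenocytes and 0.649% in fibroblasts, and the SC list that no gate used at 2.13%, 1.23% and 0.460%. In dendritic cells Ngfr stood at 0.365% and that list at 0.0849%. Whether these UMIs came from free SC RNA was not tested.

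**Figure D2:**
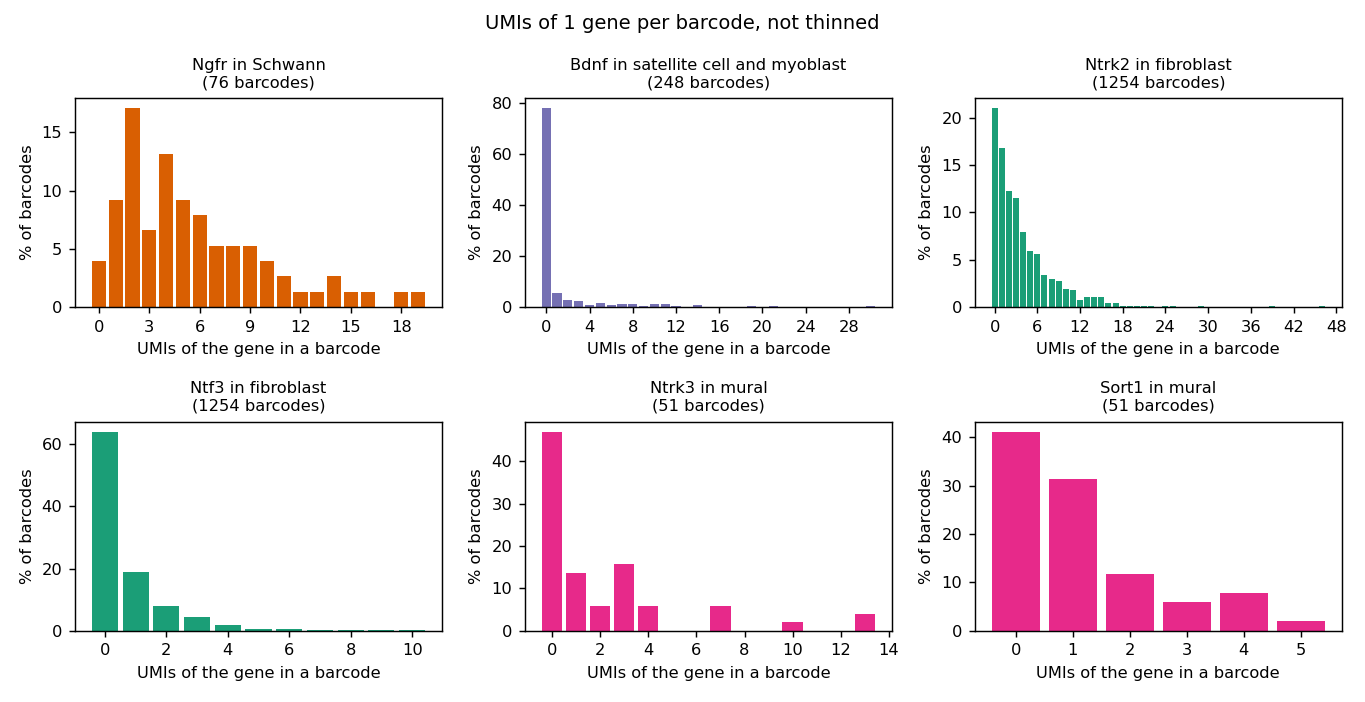
Share of barcodes (%, linear axis) by the number of UMIs of 1 gene they held, without thinning, for 6 pairs of gene and class. Ngfr in SCs formed a distribution away from 0 with 3 barcodes at 0, whereas 194 of 248 satellite cell barcodes had no Bdnf UMI and 1 had 30.

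Ntrk2, which encodes TrkB, was counted at 4772 UMIs in fibroblasts, or 243 CPM (236 to 250), and at 122 UMIs in mural cells, or 243 CPM (202 to 290). The log2 ratio between these classes was 0.00 (-0.27 to 0.26). SCs held 22 UMIs at 29.4 CPM (18.4 to 44.5), 8.25-fold below fibroblasts, and tenocytes 92 UMIs at 21.5 CPM (17.4 to 26.4), which did not differ from SCs beyond counting error. Satellite cells and myoblasts, the class highest in Bdnf, held 3 Ntrk2 UMIs at 1.17 CPM (0.242 to 3.43). Monocytes and macrophages had 87 UMIs at 1.28 CPM, muscle fibre and dendritic barcodes 2 UMIs each and endothelial cells 1 UMI.

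Most fibroblasts held Ntrk2. After thinning, 58.6% (55.8 to 61.4) of fibroblasts and 45.1% (31.1 to 59.7) of mural cells had a UMI, against 13.2% (6.49 to 22.9) of SCs and 0.692% of monocytes and macrophages. Unthinned shares were 78.9%, 62.7%, 18.4% and 1.31%. In fibroblasts the median was 2 UMIs and the highest 46. The mural level leaned on 1 barcode with 28 of the 122 UMIs, and without it the class stood at 191 CPM. In the 29 mural barcodes without a UMI of the fibroblast list Ntrk2 stood at 296 CPM (237 to 364), and in the 45 such SC barcodes at 21.3 CPM (9.73 to 40.4).

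Ntrk3, which encodes TrkC, was counted at 106 UMIs in mural cells, or 211 CPM (173 to 255). Fibroblasts followed with 322 UMIs at 16.4 CPM (14.6 to 18.3), 12.9-fold lower by a log2 ratio of 3.69 (3.36 to 4.01). SCs had 5 UMIs, each in another barcode, at 6.68 CPM (2.17 to 15.6), and fibroblasts exceeded them by 1.29 on the log2 scale (0.06 to 2.93), just beyond counting error. In the 45 SC barcodes without a UMI of the fibroblast list Ntrk3 had 0 UMIs (interval 0 to 8.72 CPM). Tenocytes held 1 UMI, monocytes and macrophages 7 UMIs at 0.103 CPM, and satellite cells, endothelial, dendritic and muscle fibre barcodes none. Mural cells were at least 179.7-fold above satellite cells, whose 0 UMIs allow 1.17 CPM. After thinning, 45.1% (31.1 to 59.7) of mural cells had an Ntrk3 UMI, against 5.10% (3.95 to 6.47) of fibroblasts and 0.0546% of monocytes and macrophages. The unthinned shares were 52.9%, 9.33% and 0.127%. The mural level fell to 106 CPM when barcodes past gates of several classes were kept. The classes were not ranked again with that setting.

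Sort1, which encodes sortilin, the partner of p75NTR for uncut precursors, was found in every class but the endothelial one. There a count of 0 still allows 8.70 CPM. Mural cells held 58 UMIs at 115 CPM (87.7 to 149), 3.45-fold above SCs, by a log2 ratio of 1.79 (1.09 to 2.53). SCs had 25 UMIs at 33.4 CPM (21.6 to 49.3), 5.13-fold above fibroblasts. The levels in muscle fibre (2 UMIs), dendritic, monocyte and macrophage, satellite cell, fibroblast and tenocyte barcodes ran from 9.31 down to 5.38 CPM, and neighbours in this order, SCs and muscle fibre barcodes included, did not differ beyond counting error. After thinning, 41.2% (27.6 to 55.8) of mural cells, 11.8% (5.56 to 21.3) of SCs and 3.46% (2.99 to 3.98) of monocytes and macrophages had a UMI, and the unthinned shares were 58.8%, 27.6% and 7.25%. The 25 UMIs of the SC class lay in 21 barcodes, with at most 2 in any of them, and in the 45 SC barcodes without the fibroblast list Sort1 stood at 26.0 CPM (13.0 to 46.6).

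Within the mural class Ntrk2 and Ntrk3 stood highest in barcodes past the smooth muscle gate alone. Of the 51 mural barcodes, 34 passed the smooth muscle gate alone, 7 the pericyte gate alone and 10 both. Ntrk3 stood at 257 CPM (206 to 315) with the smooth muscle gate alone and at 168 CPM (96.1 to 273) with both gates, while no Ntrk3 UMI was found in the 7 pericyte barcodes, which allows up to 53.2 CPM. Of the 16 Ntrk3 UMIs in the double barcodes 13 lay in 1 of them. Ntrk2 stood at 308 CPM (253 to 372), 116 CPM (57.7 to 207) and, on 3 UMIs, 53.2 CPM in the smooth muscle, double and pericyte barcodes. Sort1 was more even, at 117, 126 and 88.6 CPM. The 27 mural barcodes with Ntrk3 summed to 18436 CPM of the smooth muscle list and 1531 CPM of the pericyte list, and the 24 without it to 13143 and 4422 CPM. The barcodes with Ntrk3 were also deeper, at a median of 10953 against 7968 UMIs, and held less of the fibroblast list, at 147 against 393 CPM, and the part of either in the split was not tested. Of the 27 mural barcodes with Ntrk3, 18 (66.7%) also held Sort1 and 19 (70.4%) Ntrk2, where 58.8% and 62.7% of all mural barcodes did. Thinned to 5000 UMIs, 43.5% and 52.2% of those with Ntrk3 did, against 41.2% and 45.1% of all.

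Fibroblasts were not uniform in Bdnf, Ntf3, Ntrk2 or Ntrk3. By subset markers the 1254 fibroblasts divided into 358 adventitial (Pi16 and Dpp4), 268 Gdf10 Inmt, 218 parenchymal (Smoc2 and Cxcl14), 299 Dkk2 Bmper Lsamp and 107 nerve-sheath-like (Apod and Col28a1) barcodes, with 4 left over. Bdnf stood at 128 CPM (116 to 140) in the parenchymal and 67.8 CPM (55.8 to 81.6) in the nerve-sheath-like subset, and at 14.9, 7.84 and 1.72 CPM in the Gdf10 Inmt, Dkk2 Bmper Lsamp and adventitial subsets. The parenchymal subset thus exceeded the adventitial one 74.4-fold, a log2 ratio of 6.22 (5.36 to 7.23), and held 431 of the 641 fibroblast UMIs. Satellite cells and myoblasts stood at 123 CPM. In the parenchymal subset 28.9% of barcodes held a Bdnf UMI, without thinning, and at most 29 UMIs lay in 1 barcode.

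Ntf3 spared the adventitial fibroblasts, at 6.40 CPM (4.59 to 8.68), and reached 73.9 CPM (66.4 to 82.0) in the Dkk2 Bmper Lsamp, 72.9 CPM (64.1 to 82.6) in the parenchymal, 59.8 CPM (48.6 to 72.9) in the nerve-sheath-like and 51.8 CPM (44.3 to 60.0) in the Gdf10 Inmt subset. Those 4 subsets differed from each other by at most 1.43-fold. Ntrk3 ran the other way, at 41.3 CPM (36.5 to 46.6) in adventitial fibroblasts and between 0.889 and 6.72 CPM in the other subsets, so that 265 of the 322 fibroblast UMIs were adventitial.

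Ntrk2 varied less over the subsets than Bdnf, Ntf3 and Ntrk3. It stood at 343 CPM (327 to 360) in the Dkk2 Bmper Lsamp, 322 CPM (303 to 341) in the Gdf10 Inmt and 289 CPM (264 to 317) in the nerve-sheath-like subset, and at 162 CPM (152 to 172) and 153 CPM (140 to 166) in the adventitial and parenchymal subsets. In the comparison of the parenchymal with the adventitial subset, Bdnf, Ntf3 and Ngfr were higher and Ntrk3 lower by at least 2-fold with an interval off 0, Ngfr on 11 against 3 UMIs. Of the 13949 genes tested there, 8.44% were higher and 7.52% lower by the same rule.

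**Figure D3:**
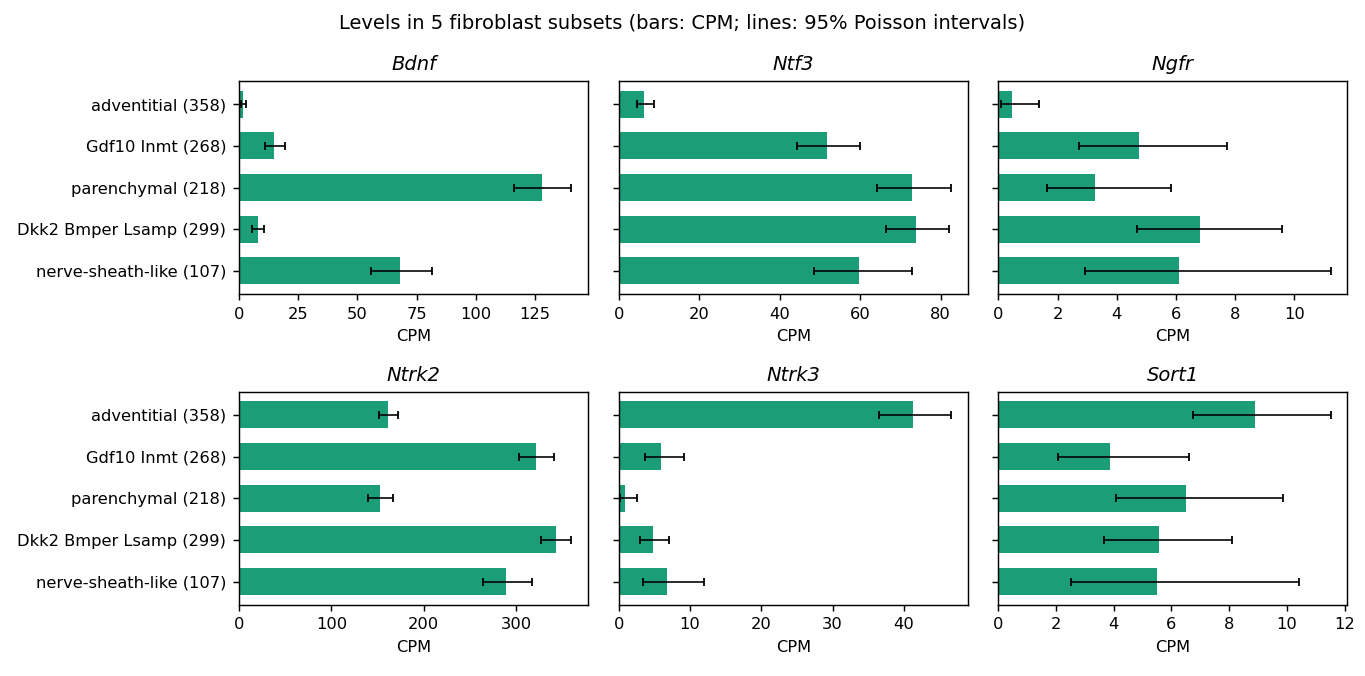
Levels (CPM, linear axis) of the 6 members in 5 fibroblast subsets, with the number of barcodes in brackets, as bars with exact Poisson 95% intervals. Bdnf peaked at 128 CPM in the parenchymal subset, whereas Ntrk3 peaked at 41.3 CPM in the adventitial subset.

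Monocytes and macrophages, low in all other members, differed among themselves in Sort1. It stood at 16.4 CPM (14.4 to 18.7) in 893 lipid-associated barcodes (Gpnmb and Fabp5), at 8.73 CPM (7.46 to 10.2) in 1633 infiltrating monocytes (Ly6c2 and Chil3) and at 3.63 CPM (3.02 to 4.33) in 2813 resident-like barcodes (Lyve1 and Folr2). The lipid-associated level was 4.53-fold the resident-like one, a log2 ratio of 2.18 (1.86 to 2.51). Bdnf, Ntf3, Ngfr and Ntrk3 stood at 0.433 CPM or below in each of these 3 subsets, and Ntrk2 between 0.941 and 1.51 CPM.

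Counted as molecules, the transcripts came from few classes. Fibroblasts, with 19.4% of the UMIs of the described barcodes, held 58.3% of the 1100 Bdnf, 80.8% of the 1135 Ntf3, 93.5% of the 5103 Ntrk2 and 73.0% of the 441 Ntrk3 UMIs. Satellite cells and myoblasts added 28.5% of Bdnf from 2.52% of all UMIs, mural cells 24.0% of Ntrk3 from 0.497%, and SCs 73.9% of Ngfr from 0.739%. Of the 823 Sort1 UMIs, 63.8% lay in monocytes and macrophages, which held 67.3% of all UMIs, 7.05% in mural cells and 3.04% in SCs. These shares depend on how many cells of each class the digestion, the GFP sort and the depth minimum let through, and are not shares of the muscle.

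**Figure D4:**
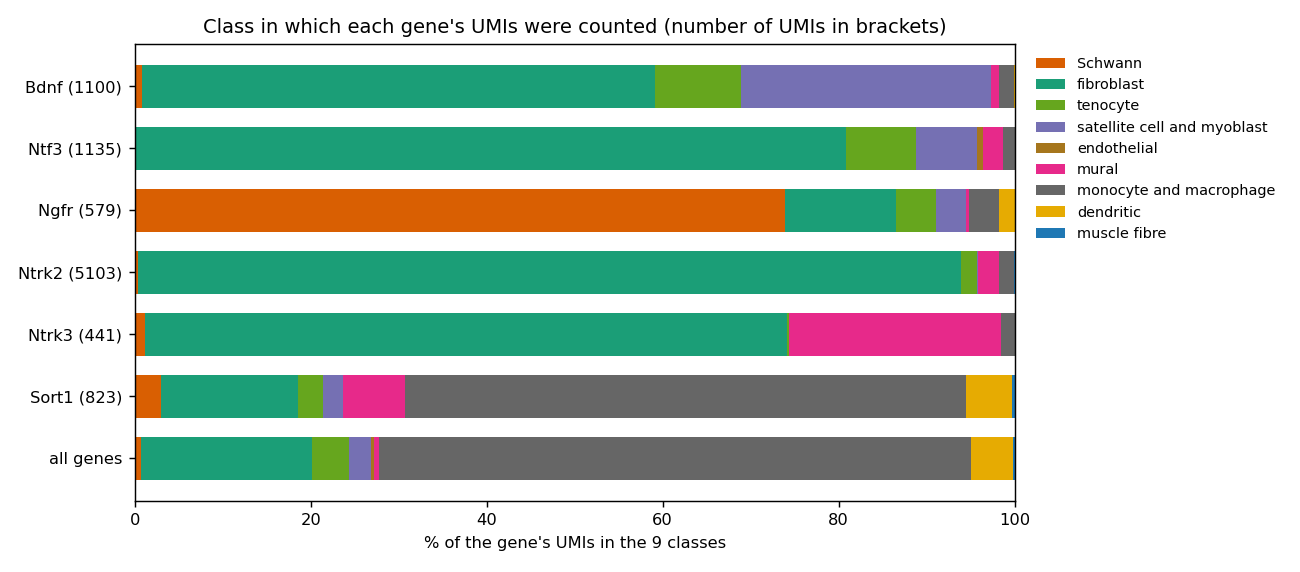
Share of the UMIs (%) of each member, and of all genes, that was counted in each of the 9 classes, with the number of UMIs of the gene in brackets. Fibroblasts held 93.5% of Ntrk2 and SCs 73.9% of Ngfr, while mural cells held 7.05% of Sort1 against 0.497% of all UMIs.

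SCs were set against fibroblasts, the class richest in member UMIs. A gene was called where the CPM differed at least 2-fold, the 95% interval of the log2 ratio excluded 0 and at least 10 UMIs were counted in both classes together. Ngfr, with a log2 ratio of 7.27 (6.91 to 7.65), and Sort1, with 2.36 (1.68 to 2.99), were called higher in SCs, and 17.7% of all 16047 genes tested were. Ntrk2 at -3.05 (-3.72 to -2.45), Bdnf at -1.44 (-2.57 to -0.50), Ntrk3 at -1.29 (-2.93 to -0.06) and Ntf3, at or below -3.54 by the limit of 3 counts, were called lower, and 10.8% of all genes were. The Bdnf value moved to -2.49 when the barcode with the most Bdnf UMIs was left out of each class. The Ntrk3 call was lost with other settings, at -0.34 when at least 10000 UMIs were asked of a barcode and at -1.11 with doubled gate minimums.

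The other classes were compared with the same fibroblasts, so the comparisons share their reference. Mural cells were called higher in Ntrk3 (3.69) and Sort1, at 4.15 (3.67 to 4.61), and lower in no member, with 11.6% of 15915 genes called higher and 11.6% lower. Satellite cells and myoblasts were called higher in Bdnf (1.91) and in Ngfr, at 1.08 (0.28 to 1.81) on 20 UMIs, against 10.3% of all genes, and lower in Ntrk2, at -7.69 (-9.97 to -6.14), and Ntrk3, against 20.0%. The SC list that no gate used stood at 2.13% of its SC level in satellite cells and at 0.460% in fibroblasts. The part of free SC RNA in the Ngfr call was not tested. Tenocytes were called higher in none, where 10.7% of genes were, and lower in Ntf3, Ntrk2 and Ntrk3, where 12.5% were. Monocytes and macrophages were called lower in 5 members, all but Sort1, against 27.7% of genes, and higher in none, against 18.6%. With 6 members, such counts can be read only roughly against these shares.

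Ligand and receptor transcripts were found in the same barcodes to a differing extent, counted first without thinning and with no test. Of 451 fibroblasts with Ntf3, 83.4% also held Ntrk2, and of 118 with Bdnf 55.1% did, where 78.9% of all fibroblasts held Ntrk2. Ntf3 and Ntrk3 met in 19 fibroblasts, 4.21% of those with Ntf3, where 9.33% of all fibroblasts held Ntrk3, and in 13 of 17 mural cells with Ntf3, where 52.9% of all mural cells held Ntrk3. Of 54 satellite cells with Bdnf, 1 held Ntrk2 and 13 (24.1%) held Ntf3, where 21.8% of all satellite cells held Ntf3. In SCs, 20 of the 21 barcodes with Sort1 and all 14 with Ntrk2 held Ngfr, as did 96.1% of all SC barcodes. With each barcode thinned to 5000 UMIs, Ntrk2 was in 68.1% of fibroblasts with Ntf3 and in 19 of 78 (24.4%) with Bdnf, against 58.6% of all fibroblasts. Ntrk3 was then in 2.62% of fibroblasts with Ntf3 against 5.10% of all, and in 6 of 9 mural cells with Ntf3 against 45.1% of all. Of 43 satellite cells that kept Bdnf, 5 (11.6%) held Ntf3, against 11.7% of all. In thinned SCs Ngfr was in 7 of 9 barcodes with Sort1 and 8 of 10 with Ntrk2, against 88.2% of all.

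The genes around the members were read from a list of 26 ligands, receptors, proteases and adaptors of the pathway, of which 24 could be tested in SCs against fibroblasts. Of these, 6 were called higher in SCs, 5 lower and 13 were not called. The median log2 ratio was -0.20, beside 0.22 over all genes tested, with genes at 0 UMIs in SCs ranked lowest in both. Setting the 2 such genes of the list at their bound from 3 counts gave 0.69. That value is an upper limit and is not comparable with the 0.22 over all genes. Over all genes tested 17.7% were called higher and 10.8% lower. Among the sortilin relatives, Sorcs1 stood at 89.6 CPM in SCs on 67 UMIs and at 1 UMI in all fibroblasts, a log2 ratio of 10.78 (8.25 to 16.11). Sorcs2, which pairs with p75NTR, stood at 132 CPM in SCs, 66.9 CPM in tenocytes and 39.9 CPM in fibroblasts, a log2 ratio of 1.73 (1.41 to 2.03) between SCs and fibroblasts. Sorl1 was lower in SCs, on 1 UMI, at -2.95 (-8.26 to -0.46). Lingo1, a co-receptor of p75NTR, was not called, at 1.47 (-0.48 to 2.94) on 4 UMIs in SCs.

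The enzymes that process precursors divided by cell. Furin stood at 82.9 CPM in SCs and 38.9 CPM in fibroblasts, a log2 ratio of 1.09 (0.69 to 1.47), and at 154 CPM in monocytes and macrophages. Pcsk5 and Pcsk6, convertases of the same family, stood at 409 and 177 CPM in fibroblasts and at 22.7 and 9.36 CPM in SCs, log2 ratios of -4.17 (-4.95 to -3.49) and -4.24 (-5.55 to -3.19). The proteases Plau and Mmp3 were lower in SCs as well, Plau at -4.63 (-6.51 to -3.28) and Mmp3, on 1 UMI in SCs against 255 CPM in fibroblasts, at -7.57 (-12.88 to -5.10). Plat, which activates plasminogen, was not called, at -0.65 (-0.97 to -0.35). The protease Mmp9 was not called either, with 0 UMIs in SCs and 10 in fibroblasts.

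Of the 12 adaptors and effectors of Trk receptors and p75NTR, 3 were called higher in SCs and none lower, where 17.7% and 10.8% of all genes tested were. These were Gab1, a docking protein of growth factor receptors, at 250.0 CPM against 50.1 CPM, Frs2 at 74.9 against 31.1 CPM and Grb2 at 119 against 52.0 CPM. Kidins220, Maged1, Bex3, Traf6 and Arhgdia, which bind Trk receptors or p75NTR, were not called, with log2 ratios between -0.98 and 0.70. The adaptors Shc1, at -0.90 (-1.64 to -0.25), Sh2b1, at -0.22 (-1.29 to 0.68), and Frs3, at 1.65 (-0.05 to 2.98) on 5 UMIs in SCs, were not called either, nor was Zfp110, which binds p75NTR, at 0.73 (-0.25 to 1.57).

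**Figure D5:**
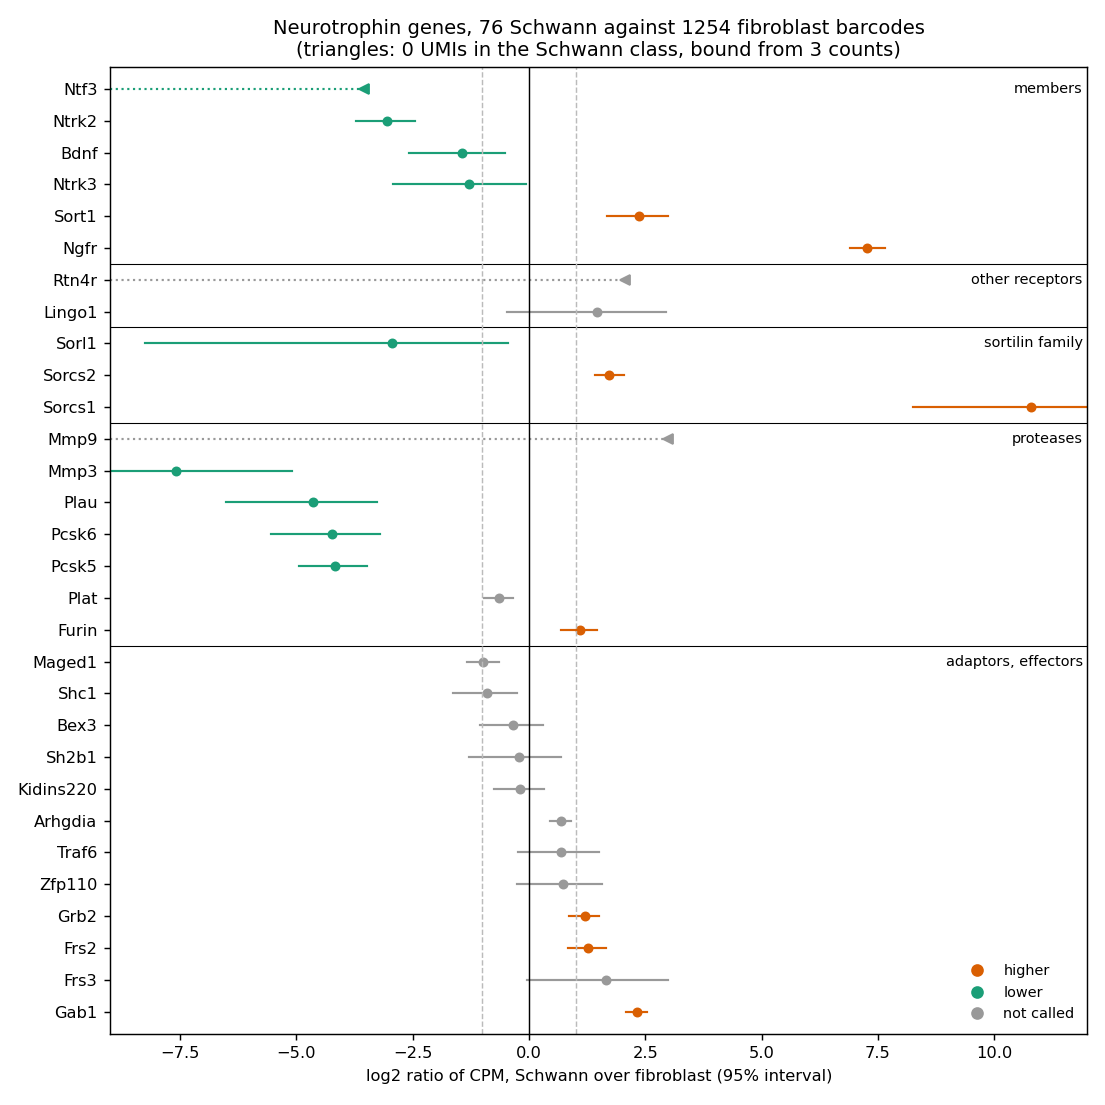
Log2 ratio of CPM in SCs over fibroblasts for the 6 members and the tested genes of the pathway list, grouped by role, with exact conditional 95% intervals; dashed lines mark 2-fold. Triangles are bounds from 3 counts for genes with 0 UMIs in SCs, and lines that reach the edge of the plot go beyond it. Ngfr, at 7.27, and Sorcs1, at 10.78 on 1 fibroblast UMI, lay farthest to the right.

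For each member the genes whose levels over the 9 classes were most like its own were found by Pearson's r of log2(CPM + 1), among 12748 genes with at least 200 UMIs that were in no marker list. The points share 1 library, and r is given as a description. For Ngfr these were Fzd3 (0.96), Smarcd1 (0.95) and Hmga2 (0.95), with Fzd3 at 114 CPM and Hmga2 at 239 CPM in SCs. For Bdnf they were Capn6 (0.98), Pwwp3b (0.98) and Col8a1 (0.97), each highest in satellite cells and myoblasts. For Ntf3 they were Fam124a (0.97), Snai1 (0.96) and Gem (0.96), and for Ntrk2 C1s1 (0.96), Steap4 (0.95) and Ebf2 (0.95), the last set each highest in fibroblasts. For Ntrk3 they were Adcy5 (0.97), Kcne4 (0.96) and Arntl2 (0.94), each highest in mural cells, and for Sort1 Chordc1 (0.94), Nprl2 (0.91) and Pqbp1 (0.91).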

How the data were processed

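The deposited matrix of the GFP+ library held raw counts of UMIs per gene and barcode that the authors made with Cell Ranger from barcodes past its cell calling. Its header names version 8.0.1, the submitters' processing notes name Cell Ranger 7.1.0 with Seurat 4.30, the study's methods name a further version, and GRCm39, GRCm38 and mm10 all appear as the genome, so the build of the counts is uncertain. By default Cell Ranger also counts intronic reads. Gene positions come from GENCODE M39 (GRCm39), matched by gene identifier. The number of per-sample value columns not mapped to a sample was 0. The library held 170648616 UMIs. Of its barcodes, 372 (1.02%) carry names that also occur among the 39531 barcodes of the GFP- library, 72 of them described here.

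Barcodes with under 10% mitochondrial counts, over 200 genes and at least 5000 UMIs were gated in Python 3.11.15 with pandas 2.3.3, matplotlib 3.10.9, scipy 1.17.1 and numpy 2.4.6. A gate asked for 5 to 30 UMIs over at least 3 or 4 markers of 1 of 15 lists, with minimums set from the list sums alone. Pericyte and smooth muscle gates were joined as mural, and the 2 endothelial gates as endothelial. A perineurial list was not used, since its genes Itga6 and Slc2a1 were found in SC barcodes. No doublet caller was run and ambient RNA was not removed. Barcodes past gates of several classes (median 17470 UMIs) were left out instead. Fibroblasts, monocytes and macrophages were divided by the subset list with the most UMIs relative to its total.

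Members, lists and alternatives were chosen with earlier results of these data known. The genes that could be named were the 6 members, genes of the pathway list that were called or had at least 50 UMIs in the gated barcodes, and for each member the 3 genes most like it. Pdgfra and the other markers named outside this rule serve to describe a class. A few genes first put on the list are not reported here. The 26 counted are those left, and all of these that could be tested enter its counts and median, named in the text or not. The gating and the ratios were also run on simulated counts. These were drawn from the profiles of the classes already gated in these data, so they are no independent check of the gates.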

Additional observations from a re-analysis of the deposited data

How the results depend on the processing

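The 6 ratios of SCs to fibroblasts were recomputed with at least 3000 or 10000 UMIs per barcode, without the filters on genes and mitochondrial counts, with doubled gate minimums, with barcodes past several gates kept, without barcodes over 30000 UMIs, as means over barcodes, without the barcode holding the most UMIs, and after subtracting 10% of the profile of 9628 barcodes under 1500 UMIs. The last was chosen after seeing the data in place of a planned profile under 1000 UMIs, since 0 barcodes were that shallow. No direction changed. Ntrk3 lost its call at 10000 UMIs (-0.34), where 27 SCs remain, and with doubled gates (-1.11), where the cause was not tested. Ngfr moved to 7.70 with the profile subtracted, and the cause was not tested. Ntf3 had 0 UMIs in SCs, so its -3.54 is an upper limit from 3 counts. With barcodes past several gates kept it had UMIs there, and the measured ratio was -4.39 (-7.43 to -2.53). Of the 6 calls, the other 5 held under each of the 9 alternatives. The ranges were -2.49 to -1.14 for Bdnf, 6.98 to 7.70 for Ngfr, -3.45 to -3.02 for Ntrk2, -2.05 to -0.34 for Ntrk3 and 2.12 to 2.52 for Sort1, and the limits for Ntf3 from -3.64 to -2.55. In mural cells Ntrk3 ran from 106 to 310 CPM, 106 with barcodes past several gates kept, and Ntrk2 from 191 to 327 CPM, 191 without the barcode holding 28 of its 122 UMIs. No paired analysis was possible because the labels give no replicate numbers and there is 1 library. Depth limits the small classes, in which 3 counts amount to 4.01 CPM in SCs, 5.97 CPM in mural, 8.70 CPM in endothelial and 14.0 CPM in muscle fibre barcodes.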

Other observations

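Some of the listed enzymes that process neurotrophin precursors also differed between fibroblast subsets. Of the 7 proteases listed, 6 were tested in the parenchymal against the adventitial subset. Of these, 1 was called higher, 2 lower and 3 were not called. Over all genes tested there, 8.44% were higher and 7.52% lower. The levels of Pcsk6, Pcsk5 and Mmp3 are given by subset. Pcsk6 stood at 422 CPM (406 to 438) in the adventitial fibroblasts and between 35.1 and 80.9 CPM in the other subsets. Pcsk5 ran from 547 CPM (529 to 565) in the adventitial to 188 CPM (168 to 210.3) in the nerve-sheath-like subset. Mmp3 was lowest in the adventitial subset, at 142 CPM (133 to 152), and between 253 and 335 CPM elsewhere. Sorcs2, the partner of p75NTR, stood at 100.1 CPM (85.4 to 117) in the nerve-sheath-like and 92.2 CPM (82.2 to 103) in the parenchymal subset, both of which were also the highest in Bdnf, and at 9.36 CPM (7.14 to 12.0) in the adventitial subset.

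Of the 459 barcodes past gates of several classes, 159 held Ntrk2, at 81.4 CPM (75.6 to 87.7) over all of them, and 40 held Ngfr, with 22 of its 141 UMIs in 1 barcode.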
